A study of Mus musculus with 4 samples.

Results

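The lysosome is the acidic compartment in which macrophages break down what they engulf, and its genes were followed here in alveolar macrophages, the phagocytes that live in the airspaces. A gene was taken as a member when its deposited symbol began with Atp6v or Atp6ap, which marks the proton pump, or when it stood in a list of 35 lysosomal hydrolases, activators, membrane proteins and sorting receptors, with the cathepsins left out. This gave 54 of the 11754 symbols in the tables: 20 pump genes, 25 soluble proteins and 9 membrane proteins and receptors. Values of the measured differences did not enter this choice, although results of these data were known when it was made. Of the 54 members, 50 had a count in at least 1 library and 41 were abundant enough to be tested.

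The cells came from mice of the strain BALB/c. Mice of one group were untreated. Those of the day 21 group had been given cells of BNL, a hepatocellular carcinoma line of the mouse, through a vein 21 days earlier and had metastases in the lung. Each group had 2 libraries of SAGE, the serial analysis of gene expression, in which a short tag beside an NlaIII cutting site stands for a transcript. No sham injection is described for the untreated mice, the sources used here give neither the age nor the number of mice, and nothing says that libraries of one group stem from separate animals. The p-values thus reflect the spread between these 4 samples alone, and that spread may be technical.

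Acid hydrolases work only at low pH. The vacuolar proton pump (V-ATPase) provides it: its cytosolic V1 sector splits ATP and its membrane V0 sector carries protons across the lysosomal membrane. New hydrolases are carried from the Golgi apparatus to endosomes by mannose 6-phosphate receptors, while heavily glycosylated membrane proteins such as LAMP1 line the inner face of the lysosome. Alveolar macrophages clear inhaled particles and surfactant and are rich in lysosomes.

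The libraries held 1630776 to 2198563 counts. A level is given as CPM, counts per 1000000 counts of the library, scaled by the trimmed mean of M-values (TMM). A tag count does not grow with transcript length as a read count does, but it depends on which tags of a gene were recovered and listed, so the order of levels of different genes is that of their tags. Cathepsin D alone took 36.4% and 35.5% of all counts in day 21 replicates 1 and 2, and 24.9% and 22.4% in untreated replicates 1 and 2, an order kept below. No tag has a count of 1, so a gene listed at 0 may have been read once per tag. The alveolar macrophage marker list summed to 2784 and 5124 CPM at day 21 and to 2187 and 4535 CPM in untreated mice, most of it from Chi3l3, Cd9 and Ear2. Both day 21 libraries lay below both untreated ones for Siglec5, Krt79, Itgax and Mrc1 and above them for Fabp5, and the other counted genes overlapped. Of its 13 tested genes 0 passed (edgeR quasi-likelihood test, adjusted p under 0.05). In this list 15 of 16 listed genes were counted, while Fabp4 was listed at 0 throughout and Marco had 2 counts in untreated replicate 1 alone. The list of monocyte-derived and interstitial macrophage genes summed to 2330 and 3372 CPM at day 21 against 57.4 and 104 CPM in untreated mice. Of these sums, Apoe alone gave 1735 and 2714 CPM at day 21 and 28.47 and 78.45 CPM in untreated mice. In that list, 7 of 8 tested genes rose (edgeR quasi-likelihood test, adjusted p under 0.05), Folr2 and Lyve1 were at 0, and the part of these cells in the values below was not tested. Neutrophil genes summed to 76.0 and 280 CPM at day 21 and to 9.33 and 159 CPM in untreated mice, with Mpo at 0. Most of this was Camp, with 69.1 and 251 CPM at day 21 and 9.33 and 140 CPM in untreated mice. All 4 listed T and NK cell genes and all 3 listed B cell genes were at 0. In RNA of a whole cell preparation, fewer cells of a type and less RNA per cell cannot be told apart.

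The tags below carry most of the counts behind the values that follow. Each is written 5′ to 3′ with the NlaIII site in capitals and the 21 bases of the tag in lower case, and its place is that of its match in GENCODE M21 transcripts on GRCm38. Laptm5, Lamp1, Man2b1 and Atp6v0b were the 4 most abundant members, and Cln3, Gm2a and Ctns were among those with the smallest p-values.
Laptm5: CATGtgttctatggtggcagcaagg
Lamp1: CATGttgatccccattgctgtgggc
Man2b1: CATGgtgcaccgtcggctgttggta
Atp6v0b: CATGtttggggctggcctcacagtc
Cln3: CATGgtggtcttcgggtaccggggg
Gm2a: CATGcaccgtctaccgctgctgctc
Ctns: CATGgacttgaaggtgctgatgctg
The Laptm5 tag lies in the 3′ UTR at chr4:130935936-130935960 on the plus strand, in exon 8 of 8, and gave 96.7% of all Laptm5 counts. The Lamp1 tag lies in coding sequence of exon 9 of 9 (chr8:13174447-13174471, plus strand) and held 89.6%. The Ctns tag is in the 3′ UTR of exon 11 of 11 (chr11:73184359-73184383, minus strand). These tags and that of Atp6v0b (exon 7 of 8, chr4:117885263-117885287, minus strand) sit at the last NlaIII site of their transcripts, where SAGE reads a transcript by design. The tags of the other members in this set do not sit there in the principal transcript of their gene. The Gm2a tag overlaps the start codon in exon 1 of 4 (chr11:55098163-55098187, plus strand), with 25 further NlaIII sites downstream, and yet gave 84.0% of all Gm2a counts. The Man2b1 tag crosses the junction after exon 20 of 24 (chr8:85095808-85096291, plus strand), 4 sites short of the last, and held 99.5% of its counts. The Cln3 tag lies in exon 8 of 15 (chr7:126579281-126579305, minus strand), 5 sites short of the last, and held 67.9%. It is the last site of another annotated Cln3 transcript. For 13 of the 54 members, including Gm2a, Man2b1 and Cln3, the tag at the last site is not among the listed tags, so their level rests on other tags.

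None of the 41 tested members passed the test between day 21 and untreated mice (edgeR quasi-likelihood test, adjusted p under 0.05 over all 2979 tested symbols). Over all tested symbols 22 passed, which is 0.739%, 20 of them higher and 2 lower at day 21. DESeq2 also called 0 members. At an unadjusted p under 0.05, 4 of 41 members were past the threshold, 3 higher (Cln3, Gm2a and Naglu) and 1 lower (Ctns), beside 5.64% of all tested symbols. DESeq2 gave 2 of 50 members at that level, Gm2a and Naglu, beside 179 of 7236 symbols. The SE of the log2 change ran from 0.44 (Laptm5) to 1.05 (Atp6v0e2), so changes of less than several fold could not be told from 0 for most members.

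The direction leaned upward without passing a test. The log2 change from untreated to day 21 was above 0 in 30 of 41 members, or 73.2%, against 45.6% of all tested symbols. The median log2 change was 0.33 over the members and -0.07 over all tested symbols. Scaling by total counts moved both medians down, to 0.08 and -0.29, and left 23 of 41 members above 0, beside 32.4% of all tested symbols. Without untreated replicate 1, 23 of 41 members (56.1%) were above 0, beside 49.5% of all tested symbols. Both day 21 libraries lay above both untreated ones for 9 of 41 members (22.0%), beside 15.2% of all tested symbols. These were Acp5, Atp6v0a1, Atp6v0c, Atp6v1c1, Cln3, Gaa, Laptm5, Naglu and Tpp1. Both day 21 libraries lay below both untreated ones for 4 members (9.76%), namely Asah1, Atp6v0e2, Lamp2 and Manba, beside 16.0% of all tested symbols. The soluble proteins had a median of 0.50 over 17 tested genes with 14 above 0, and this median was 0.20 without day 21 replicate 2 and 1.0 without untreated replicate 2. The membrane proteins had a median of 0.27 over 8. The pump had a median of 0.17 over 16, which turned to -0.09 with scaling by total counts.

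**Figure D1:**
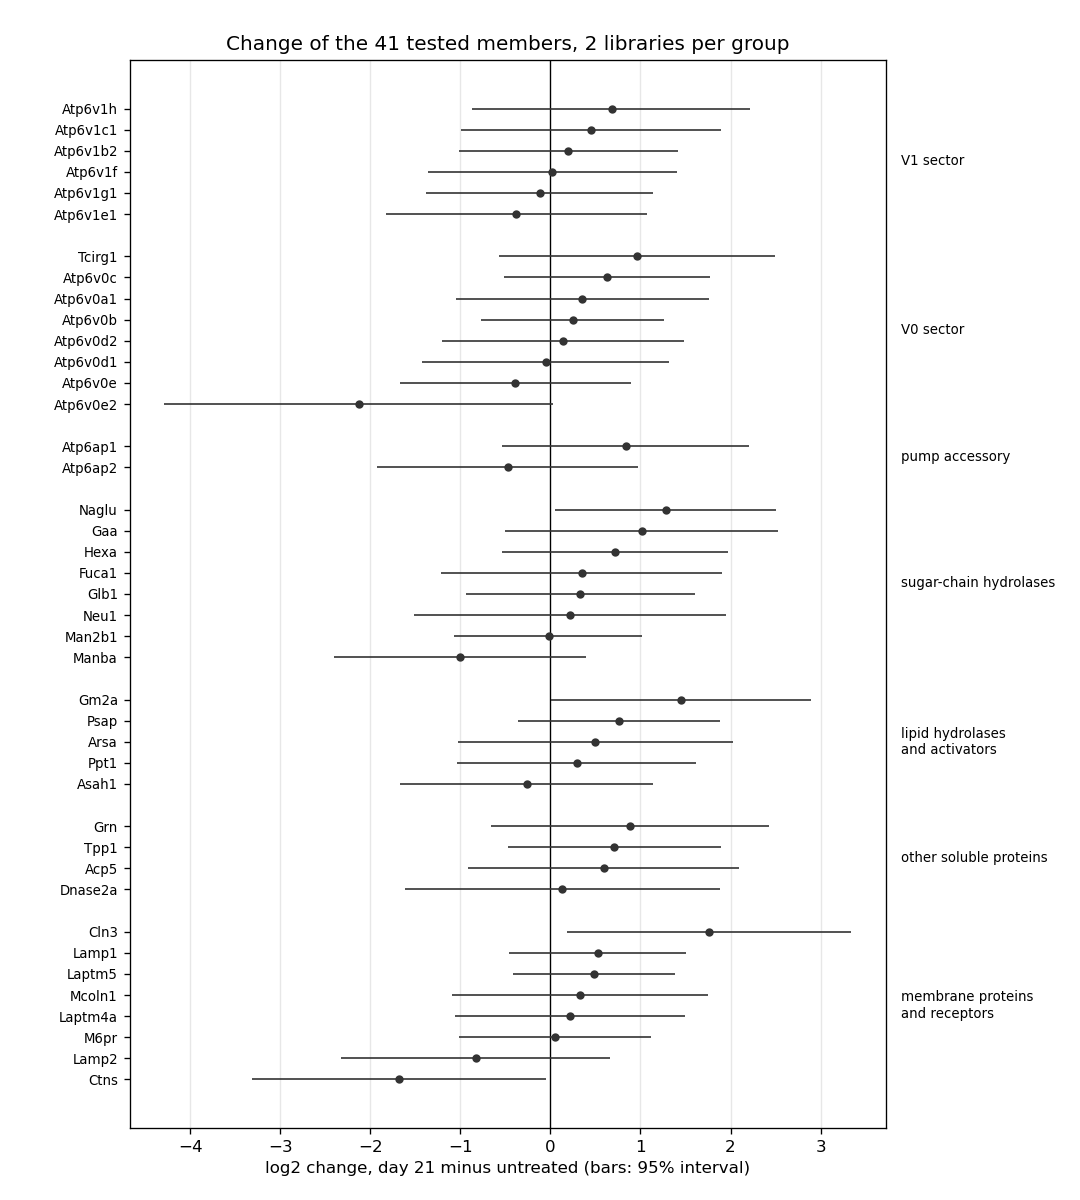
Log2 change, day 21 minus untreated, of the 41 tested members (points) with 95% intervals (bars), grouped by role. The intervals of Cln3, Gm2a and Naglu lie above 0 and that of Ctns below 0, and all others include 0.

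Counts of the members summed to 6.985% and 6.387% of the library at day 21 and to 6.002% and 5.561% in untreated mice. The exact Clopper-Pearson 95% intervals of the nearest pair ran from 6.35% to 6.43% for day 21 replicate 2 and from 5.97% to 6.04% for untreated replicate 1. They cover counting error only, since amplified copies of a tag were not told apart. Both day 21 shares were above both untreated ones, and after scaling the mean day 21 level was 1.35 times the untreated one. Few genes carried this sum: Laptm5 held 44.6% of all member counts, Lamp1 21.6%, Man2b1 9.33% and Atp6v0b 8.43%. Without these 4 genes the summed level was 9869 and 14150 CPM at day 21 against 6871 and 9742 CPM in untreated mice, so that day 21 replicate 1 lay only just above untreated replicate 2, and the ratio of means was 1.45.

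**Figure D2:**
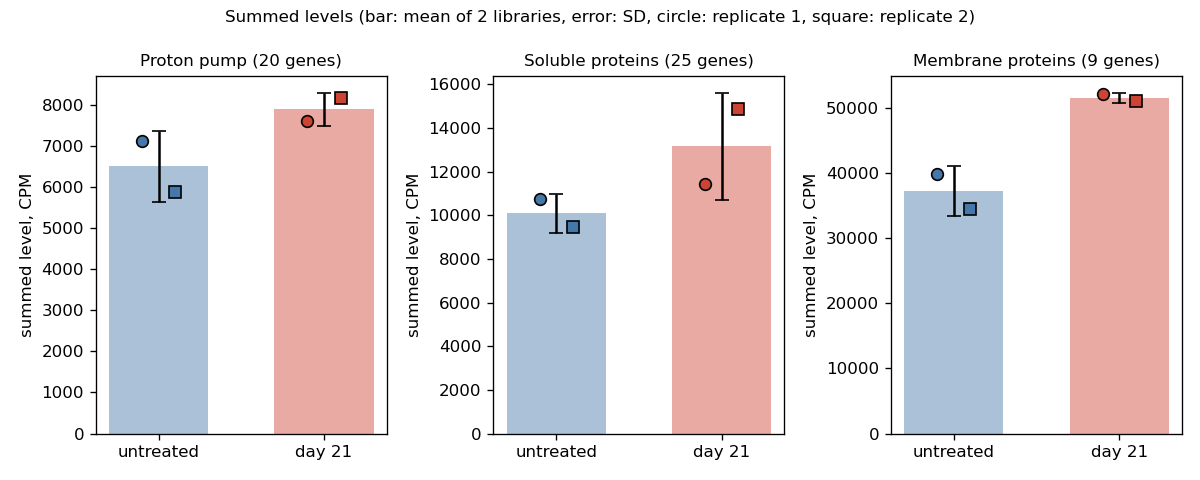
Summed level in CPM of the pump genes, the soluble proteins and the membrane proteins in each library (circles: replicate 1, squares: replicate 2), with the mean (bar) and SD of 2 libraries. In all 3 panels both day 21 points lie above both untreated points, with ratios of means of 1.21, 1.3 and 1.38.

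The proton pump summed to 7611 and 8171 CPM at day 21 and to 7112 and 5885 CPM in untreated mice. After scaling by TMM the groups did not overlap, and the ratio of means was 1.21. As shares of all counts they did overlap, at 0.7468% and 0.7037% at day 21 and 0.7383% and 0.6551% in untreated mice. The log2 ratio of 0.28 came down to 0.06 with scaling by total counts. Atp6v0b, a proteolipid of the proton-carrying ring, held 73.6% of the pump counts, and the ring subunit Atp6v0c a further 13.0%.

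In the V1 sector, the part that splits ATP, 6 of 9 genes were tested, 0 passed and the median log2 change was 0.11. Atp6v1b2, the B subunit that sits in the ATP-splitting head, was the most abundant, with 219 and 308 CPM at day 21 and 211 and 247 CPM in untreated mice. Its groups overlapped (log2 change 0.20 ± 0.59 SE). The stalk subunits Atp6v1g1 (log2 change -0.12), Atp6v1f (0.02) and Atp6v1e1 (-0.38) overlapped as well. Atp6v1c1, the C subunit that joins the sectors when the pump assembles, stood at 28.0 and 27.8 CPM at day 21 and 15.7 and 24.9 CPM in untreated mice. Its groups did not overlap, but the untreated libraries differed by more than the gap between the groups (log2 change 0.45 ± 0.70 SE, adjusted p = 0.999). Atp6v1h, a regulatory subunit, had 22.3 and 9.97 CPM at day 21 and 8.35 and 11.8 CPM in untreated mice, with the day 21 libraries on either side of untreated replicate 2. Atp6v1a, the catalytic A subunit without which no pump works, had only 3 and 0 counts at day 21 and 0 and 2 in untreated mice. The tag at its last NlaIII site is not among the listed tags, so these counts say little about its level. Atp6v1d had 4 to 11 counts per library and Atp6v1g2 was listed at 0. For both of these too, the tag at the last NlaIII site is not among the listed tags.

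In the V0 sector, the part within the membrane, 8 of 9 genes were tested, 0 passed and the median log2 change was 0.19. Atp6v0b had 9613 and 8515 counts at day 21 and 11949 and 9440 in untreated mice, which is 5778 ± 404 CPM against 4861 ± 1420 CPM (SD, n = 2). Untreated replicate 1 lay between the day 21 libraries and untreated replicate 2 below them (log2 change 0.25 ± 0.49 SE). Atp6v0c had 1279 and 987 CPM at day 21 against 556 and 911 CPM in untreated mice. The groups did not overlap, but day 21 replicate 2 was close to untreated replicate 2 (log2 change 0.63 ± 0.55 SE, adjusted p = 0.999). The most abundant tag of Atp6v0c also matches its pseudogenes Atp6v0c-ps1 and Atp6v0c-ps2, so its counts may hold reads of those.

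Several V0 subunits exist in more than one form, and the counts of the forms were set side by side. Of the 2 d subunits, Atp6v0d2, known from osteoclasts and from alveolar macrophages, gave 67.8% and 77.1% of the d counts at day 21 and 61.8% and 74.8% in untreated mice. It was the larger part in every library when all tags were summed, with overlapping groups, but 60.1% of its counts came from 1 internal tag. At the last NlaIII site alone Atp6v0d2 had 24 and 52 counts at day 21 and 23 and 102 in untreated mice, and Atp6v0d1 58 and 55 against 63 and 98, so Atp6v0d1 was the larger in all but untreated replicate 2. The level of Atp6v0d2, at 79.4 and 132 CPM at day 21 and 52.5 and 139 CPM in untreated mice, differed more within than between groups (log2 change 0.14 ± 0.65 SE). Atp6v0d1, the widespread form, had a log2 change of -0.05 ± 0.67 SE, which was 0.00 with upper-quartile scaling. Of the a subunits, Tcirg1 (a3, the form of lysosomes and of the osteoclast border) gave 38.8% and 58.1% of the counts at day 21 and 29.3% and 48.8% in untreated mice. Tcirg1 had 18.8 and 51.3 CPM at day 21 and 10.8 and 24.9 CPM in untreated mice, with day 21 replicate 1 below untreated replicate 2 (log2 change 0.96 ± 0.74 SE). Atp6v0a1 made up the remainder with 29.7 and 37.0 CPM against 26.0 and 26.1 CPM. Its groups did not overlap, at a log2 change of 0.35 ± 0.68 SE. At the last NlaIII site alone Tcirg1 had 14 and 19 counts at day 21 and 11 and 20 in untreated mice. Atp6v0a1 had 8 and 6 against 12 and 9 there, so Tcirg1 was the larger in all but untreated replicate 1. Of all Atp6v0a1 counts, 57.9% came from 1 internal tag. Atp6v0a2 was listed at 0, but the tag at its last NlaIII site is not among the listed tags.

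The pump gene with the smallest p-value pointed down. Atp6v0e2, one of the small e subunits, had 7 and 0 counts at day 21 and 29 and 12 in untreated mice. Both day 21 libraries lay below both untreated ones at a log2 change of -2.13 ± 1.05 SE, which missed the threshold also before adjustment (edgeR adjusted p = 0.911). Its partner form Atp6v0e gave 87.7% to 100% of the e counts in every library and stood at 118 and 107 CPM at day 21 and 102 and 194 CPM in untreated mice (log2 change -0.39 ± 0.62 SE).

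Of the accessory proteins, Atp6ap1, which helps assemble the pump, had 87.4 and 197 CPM at day 21 and 42.2 and 117 CPM in untreated mice. In both groups replicate 2 was more than double replicate 1 in size (ratios of 2.26 and 2.77), and the groups overlapped (log2 change 0.84 ± 0.67 SE). The log2 change was -0.13 when only the tags at the last NlaIII site were used. Atp6ap2, the prorenin receptor, had a log2 change of -0.47 ± 0.70 SE.

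**Figure D3:**
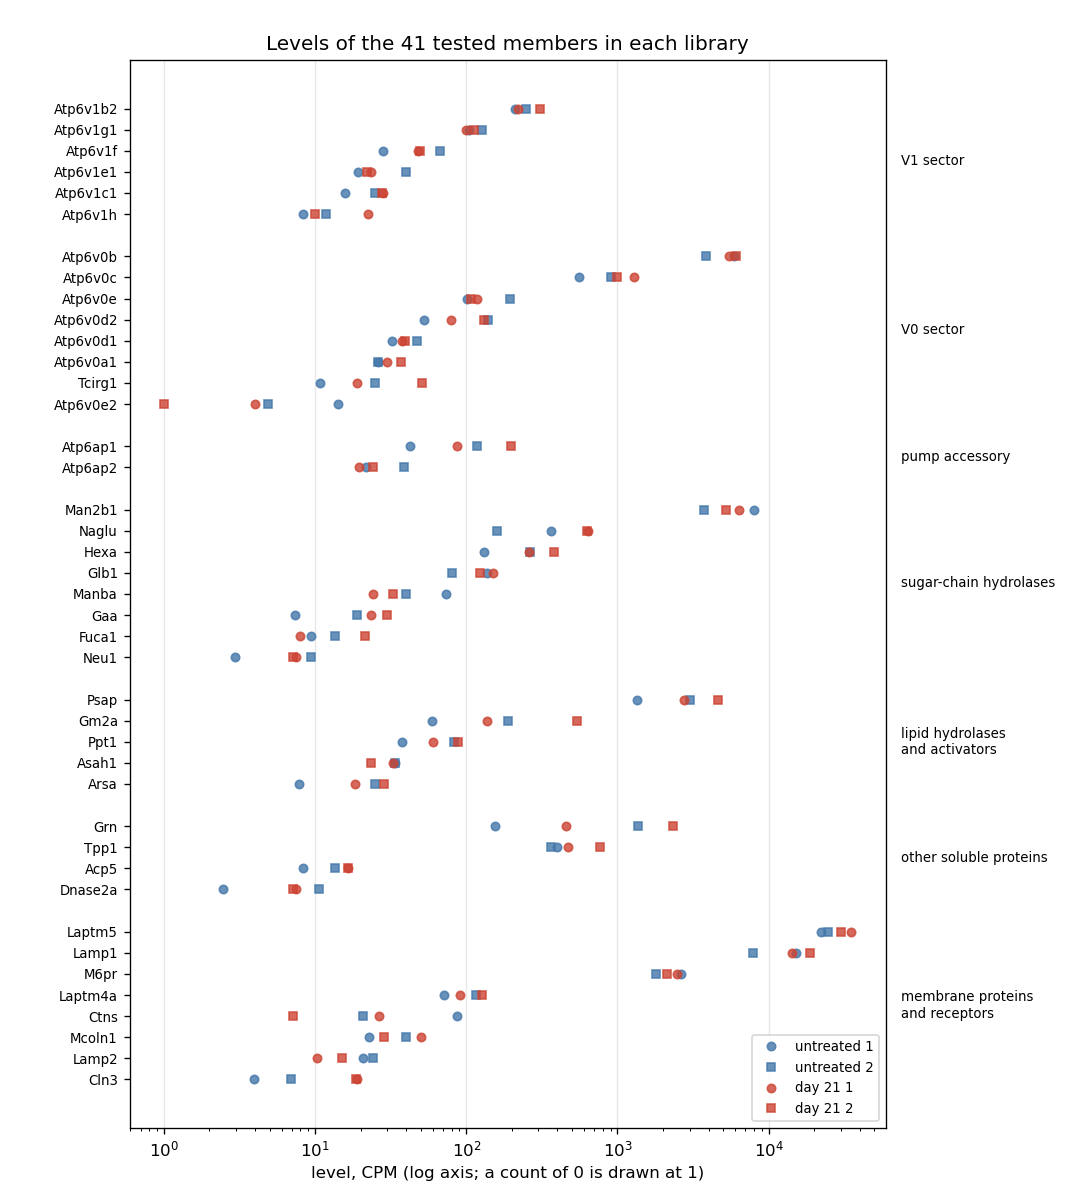
Level in CPM on a log axis of the 41 tested members in each of the 4 libraries, grouped by role, with colour for the group and shape for the replicate. For Cln3 and Naglu both day 21 points lie clearly above both untreated points, for Manba and Lamp2 below, and for most other genes the groups interleave.

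Among the soluble proteins, enzymes that trim sugar chains numbered 14, of which 8 were tested and 0 passed, with a median log2 change of 0.34. Man2b1, the lysosomal alpha-mannosidase, held 50.9% of all counts of soluble members. It had 6337 and 5188 CPM at day 21 and 7960 and 3744 CPM in untreated mice. The untreated libraries enclosed the day 21 ones, and the log2 change was -0.02 ± 0.51 SE. Because of Man2b1, the sum of all soluble proteins differed less (ratio 1.3) than the sum without it (5095 and 9707 CPM against 2775 and 5719 CPM, ratio 1.74), though without it the groups overlapped.

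Naglu, which removes N-acetylglucosamine from heparan sulfate, had 1112 and 888 counts at day 21 and 740 and 389 in untreated mice. This is 635 and 632 CPM against 363 and 159 CPM. The day 21 libraries lay close together and above both untreated ones, which differed 2.29-fold from each other (log2 change 1.28, 95% interval 0.05 to 2.51, edgeR adjusted p = 0.831). Hexa, the alpha subunit of the enzyme that degrades GM2 ganglioside, had 262 and 383 CPM at day 21 and 131 and 262 CPM in untreated mice. Day 21 replicate 1 and untreated replicate 2 lay at almost one level (log2 change 0.72 ± 0.61 SE). Gaa, the acid alpha-glucosidase that breaks down glycogen, had 23.4 and 29.9 CPM at day 21 and 7.36 and 18.8 CPM in untreated mice, without overlap (log2 change 1.02 ± 0.73 SE, adjusted p = 0.999). Glb1, the lysosomal beta-galactosidase, had a log2 change of 0.33 ± 0.62 SE.

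Manba, the beta-mannosidase, had a log2 change below 0. It had 24 and 32.8 CPM at day 21 and 73.6 and 40.0 CPM in untreated mice, so both day 21 libraries were the lower ones (log2 change -1.0 ± 0.68 SE, adjusted p = 0.999). Gusb, the beta-glucuronidase, had 5 and 8 counts at day 21 and 0 and 28 in untreated mice. Arsb, Gla and Idua had 2 to 3 counts, all in untreated replicate 2, and Ids was listed at 0. Sgsh had 4 to 6 counts in every library.

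Of the 6 proteins for lipid breakdown, 5 were tested, 0 passed and the median log2 change was 0.50. Psap, the precursor of the saposins that present lipids to the hydrolases, had 2774 and 4650 CPM at day 21 and 1349 and 3040 CPM in untreated mice. Within each group replicate 2 was the higher, and day 21 replicate 1 lay below untreated replicate 2 (log2 change 0.76 ± 0.54 SE). Gm2a, the activator that lifts GM2 ganglioside out of the membrane for hexosaminidase, had 238 and 763 counts at day 21 and 121 and 462 in untreated mice. This is 136 and 543 CPM against 59.4 and 189 CPM. The replicates differed 4.0-fold at day 21 and 3.18-fold in untreated mice, and the groups overlapped (log2 change 1.45, 95% interval 0.01 to 2.89, edgeR adjusted p = 0.876). Leaving out 1 library gave 0.17 (without day 21 replicate 2) to 2.54 (without untreated replicate 2). Arsa (log2 change 0.50), Ppt1 (0.29) and Asah1 (-0.26) had intervals that include 0. Asah1, the acid ceramidase, stood at 32.6 and 23.5 CPM at day 21 and 33.9 and 33.5 CPM in untreated mice, with the day 21 libraries just below. Smpd1, the acid sphingomyelinase, had 5 and 3 counts at day 21 and 2 and 2 in untreated mice and was not tested.

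The remaining soluble proteins are a peptidase, phosphatases, a nuclease and progranulin, of which 4 of 5 were tested and 0 passed. Grn, progranulin, had 804 and 3278 counts at day 21 and 316 and 3327 in untreated mice. The libraries of a group differed 5.08-fold at day 21 and 8.76-fold in untreated mice, which is far more than the groups differed from each other (log2 change 0.88 ± 0.75 SE). Without untreated replicate 2 the log2 change of Grn was 3.20 with an adjusted p of 0.00966 (edgeR), without day 21 replicate 2 it was -0.69, and without untreated replicate 1 it was 0.04. Tpp1, a tripeptidyl peptidase, had 469 and 771 CPM at day 21 and 395 and 362 CPM in untreated mice. Its groups did not overlap (log2 change 0.71 ± 0.57 SE, adjusted p = 0.999). Acp5, the tartrate-resistant acid phosphatase, had 16.6 and 16.4 CPM at day 21 and 8.35 and 13.5 CPM in untreated mice, also without overlap (log2 change 0.59 ± 0.73 SE). Dnase2a, which degrades DNA, ranged from 2.45 CPM in untreated replicate 1 to 10.6 CPM in untreated replicate 2, with both day 21 libraries in between.

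The 9 membrane proteins and receptors held the highest levels of all. They summed to 51620 ± 735 CPM at day 21 and 37290 ± 3798 CPM in untreated mice (SD, n = 2), with 94.3% of the counts in Laptm5 and Lamp1. Without these 2 genes the sum was 2655 and 2335 CPM at day 21 and 2848 and 1996 CPM in untreated mice, with the day 21 libraries inside the untreated range and a ratio of 1.03.

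Laptm5, a lysosomal membrane protein of blood-derived cells, had 61562 and 42237 counts at day 21 and 44934 and 60586 in untreated mice. After scaling this is 32620 ± 3605 CPM against 23410 ± 1908 CPM (SD, n = 2). The groups did not overlap with this scaling by TMM, and the log2 change was 0.48 (SE 0.44, edgeR adjusted p = 0.999). Leaving out any 1 library kept it between 0.40 and 0.62, but scaling by total counts gave 0.26. As a share of all counts Laptm5 overlapped, with day 21 replicate 2 below untreated replicate 2. Lamp1, the main glycoprotein lining the lysosome, had 25053 and 26253 counts at day 21 and 30703 and 19220 in untreated mice. This is 16500 ± 3096 CPM against 11460 ± 5104 CPM, with untreated replicate 1 above day 21 replicate 1 (log2 change 0.53 ± 0.48 SE). Lamp2, its relative with a part in autophagy, had 10.3 and 14.9 CPM at day 21 and 20.6 and 24.1 CPM in untreated mice. Both day 21 libraries were the lower ones, but Lamp2 did not pass (log2 change -0.83 ± 0.72 SE, adjusted p = 0.999), and its difference from Lamp1 was not tested.

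Cln3, a lysosomal membrane protein mutated in juvenile Batten disease, had 33 and 26 counts at day 21 and 8 and 17 in untreated mice. This is 18.9 and 18.5 CPM against 3.93 and 6.95 CPM. The day 21 libraries lay together, well above both untreated ones, and the gene had the highest log2 change of the tested members, in the upward direction (1.76, 95% interval 0.18 to 3.34, edgeR adjusted p = 0.74). Ctns, the exporter of cystine from the lysosome, had the lowest p of the members that were lower at day 21. It had 46 and 10 counts at day 21 and 178 and 51 in untreated mice, which is 26.3 and 7.12 CPM against 87.4 and 20.8 CPM. Replicate 1 was the higher in both groups, by 3.69-fold and 4.19-fold, and day 21 replicate 1 lay above untreated replicate 2 (log2 change -1.68, 95% interval -3.31 to -0.05, edgeR adjusted p = 0.831). Without untreated replicate 2 its log2 change was -2.35 with an adjusted p of 0.0478 (edgeR), and without untreated replicate 1 it was -0.30 with an adjusted p of 0.997.

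Mcoln1, the calcium channel of the lysosomal membrane, had 50.3 and 28.5 CPM at day 21 and 22.6 and 40.0 CPM in untreated mice, interleaved between groups (log2 change 0.33 ± 0.69 SE). Laptm4a had a log2 change of 0.22 ± 0.62 SE, which was -0.03 with scaling by total counts. M6pr, the smaller of the mannose 6-phosphate receptors, stood at 2458 and 2139 CPM at day 21 and at 2642 and 1788 CPM in untreated mice, with the untreated libraries around the day 21 ones (log2 change 0.05 ± 0.52 SE). Igf2r, the larger receptor for the same sugar mark, was listed at 0.

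The members did not vary independently of library. Replicate 2 was above replicate 1 in both groups for 19 of 41 members (46.3%), and for 34.6% of all tested symbols. Among the pump genes this was so for 9 of 16. The reverse, replicate 1 above replicate 2 in both groups, held for 1 of 16, beside 1027 of 2979 tested symbols. Untreated replicate 1 gave the lowest level of the 4 libraries for 26 of 41 members (63.4%), Psap, Grn, Gm2a, Hexa and Laptm5 among them, and for 32.5% of all tested symbols. It gave the highest level for 6 members (14.6%) and for 31.4% of all tested symbols. The 6 were Asah1, Atp6v0e2, Ctns, M6pr, Man2b1 and Manba. The lowest library was day 21 replicate 2 for 3 members (7.32%) and for 33.2% of all tested symbols.

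Where within a transcript the tags lay also differed between libraries. Of the members, 16 had at least 100 counts at the tag of their last NlaIII site and 100 at tags further upstream, here called internal tags. The site is that of the principal transcript, and an internal tag can be the last site of another annotated transcript. For Lamp1, Psap and Grn, a tag of each kind shows this, again with the NlaIII site in capitals.
Lamp1, last site: CATGttgatccccattgctgtgggc
Lamp1, internal: CATGaagaatgtgaccgttgtgctc
Psap, last site: CATGaactgaggggtctctgtgtag
Psap, internal: CATGtccaacatccctctcctgctg
Grn, last site: CATGggaggtggagcctcaaactaa
Grn, internal: CATGgaggtgagctgccctgaagga
The internal Lamp1 tag lies in exon 4 of 9 (chr8:13167889-13167913), the internal Psap tag in exon 5 of 15 (chr10:60294667-60294691) and the internal Grn tag in exon 9 of 13 (chr11:102435078-102435102), all in coding sequence on the plus strand. This Grn tag is also the last site of another annotated Grn transcript, and the part of such a transcript in its counts was not tested. Internal tags gave 8.91% and 10.6% of the Lamp1 counts at day 21 and 3.53% and 23.0% in untreated mice. For Psap they gave 46.4% and 73.6% at day 21 and 40.6% and 50.4% in untreated mice, and for Grn 89.4% and 95.9% against 82% and 95%. In all 3 genes untreated replicate 1 had the lowest internal share. Over the 16 genes it was lowest in untreated replicate 1 for 9 and highest in day 21 replicate 2 for 11. The 11 include Atp6v0e, where untreated replicate 2 had the same rounded share of 17.9%. Medians over the 16 genes were 47.8% and 65.1% at day 21 and 40.2% and 49.2% in untreated mice. Over the 260 symbols of any kind with as many counts, the medians were 49.1% and 62.6% at day 21. There untreated replicate 2 had 50.3%, and untreated replicate 1 was again the lowest. The medians ranked the libraries in the same order in both sets, so this order was not particular to the members.

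**Figure D4:**
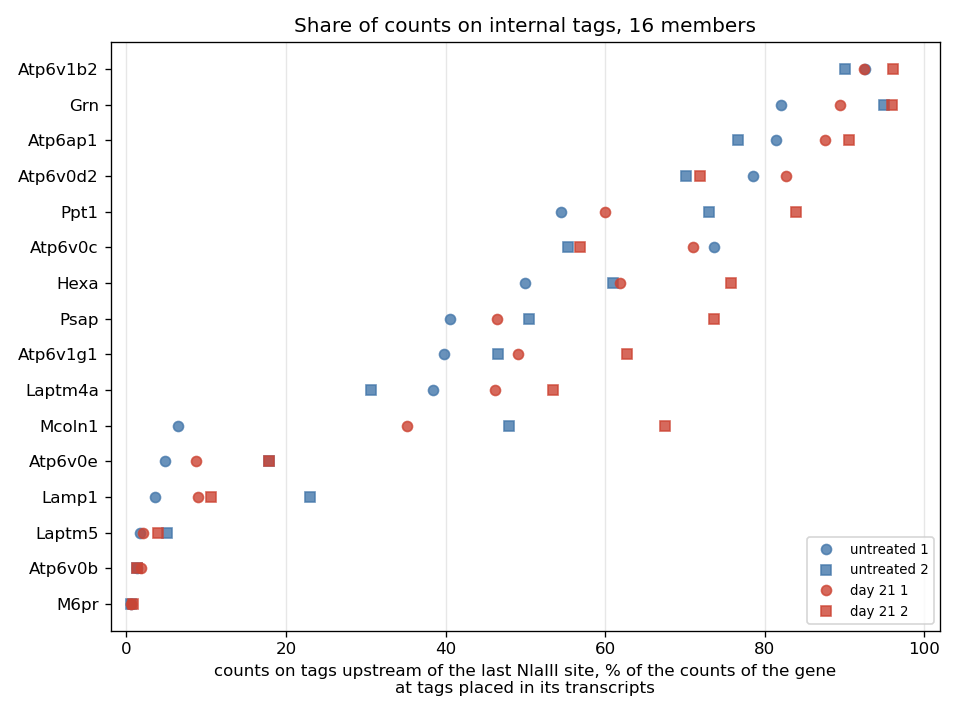
Share of the counts of a gene on tags upstream of its last NlaIII site, in percent, for the 16 members with at least 100 counts of each kind, in each library (colour: group, shape: replicate). Day 21 replicate 2 lies farthest right for 11 genes, counting Atp6v0e, where it is level with untreated replicate 2 at 17.9%. Untreated replicate 1 lies farthest left for 9.

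The kind of tag bears on the size of the differences. The ratio of day 21 to untreated levels was greater at internal tags than at the last site in 13 of these 16 members (81.2%), and in 212 of 260 symbols of any kind with as many counts (81.5%). Psap was 2.26 times higher at day 21 at internal tags and 1.18 times at its last site, Hexa 2.01 and 1.15 times, and Atp6ap1 2.06 and 0.834 times. The most abundant internal tag of Atp6ap1 is also the last site of another annotated transcript of that gene. In Lamp1 the kinds of tag gave nearly one ratio, 1.39 and 1.44. Median ratios were 1.37 and 1.02 over the 16 members and 1.22 and 0.804 over the 260 symbols. The median ratio was thus larger at internal tags, both over the 16 members and over the 260 symbols. At either kind of tag the median of the members lay above that of the 260 symbols. Whether the lean of the members relative to other symbols depends on the kind of tag was not tested. What makes internal tags more frequent in a library was not tested.

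Promoters of the members were searched for a sequence from the known consensus of lysosomal gene promoters. The choice of genes did not use it. Because the consensus describes promoters of lysosomal genes, a higher share in a list of such genes is not an independent result. The palindrome TCACGTGA is the core of the element through which TFEB, the master transcription factor of lysosomal genes, acts, and it holds the shorter CACGTG, the E-box. Both read the same on either strand. In RefSeq promoters on GRCm38.p6, from 250 bases before to 50 after the start of a gene, 46 of 54 members were found. TCACGTGA stood in 7 of these 46 (15.2%), in Atp6v0d1, Atp6v0e, Atp6v1a, Cln3, Gla, Igf2r and Mcoln1, and in 1.12% of 27025 promoters of all genes. CACGTG, including those inside TCACGTGA, stood in 14 of 46 (30.4%) and in 8.09% of all promoters. Stretches are shown for the membrane proteins Lamp1, which had the most cores of the members, and Cln3 and Mcoln1, which hold both forms, chosen after the matches were seen, with CACGTG or TCACGTGA in capitals.
Lamp1: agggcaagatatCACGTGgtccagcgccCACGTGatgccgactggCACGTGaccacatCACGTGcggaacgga
Cln3: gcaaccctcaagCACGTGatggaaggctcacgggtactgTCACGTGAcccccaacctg
Mcoln1: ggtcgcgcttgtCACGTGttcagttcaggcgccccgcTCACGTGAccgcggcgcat
Lamp1 (chr8:13159088-13159160, plus strand) has 4 cores in the 73 bases before its start. Cln3 (chr7:126583340-126583397, minus strand) and Mcoln1 (chr8:3500436-3500491, plus strand) each have 2, of which 1 is the palindrome. Gla and Igf2r have 2 palindromes each, and Atp6v0b has 2 shorter cores. Of the 7 genes with the palindrome, Atp6v1a, Gla and Igf2r were not tested for a change. The tested ones were Cln3, with the highest upward log2 change of the members (1.76), Mcoln1 (0.33), Atp6v0d1 (-0.05) and Atp6v0e (-0.39). A match of letters does not show that a factor binds there in these cells.

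Other genes of the pathway were counted from lists. Of 7 tested regulators of the lysosome and of nutrient sensing on its surface, 0 passed, with a median log2 change of 0.59 and 5 above 0. Rragc, a GTPase of that machinery, had a log2 change of -0.40, and Lamtor2, which anchors it, 0.59. Of 19 tested genes for sorting and delivery of lysosomal enzymes, 0 passed, the median was -0.18 and 6 were above 0. The median over all tested symbols was -0.07.

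Of 23 tested further lysosomal proteins, 1 rose and 0 fell, with a median of 0.54 and 17 above 0. The one was Cd63, a tetraspanin of late endosomes, with 715 and 852 counts at day 21 and 18 and 27 in untreated mice (log2 change 5.66 ± 0.73 SE, edgeR adjusted p = 4.75e-05). Some tags of Cd63 also match its pseudogene Cd63-ps.

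The cathepsins, set beside the members for comparison, took 37.0% and 36.2% of all counts at day 21 and 25.2% and 22.9% in untreated mice, nearly all of it cathepsin D. Their summed level was 1.78 times higher at day 21, beside 1.35 times for the members, and the difference of these ratios was not tested. Of 10 tested cathepsin genes and Lgmn, 0 passed, 4 had an unadjusted p under 0.05 (Ctsb, Ctsd, Ctsl and Lgmn), and the median log2 change was 0.97.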

How the data were processed

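NlaIII cut the cDNA of alveolar macrophages at CATG and EcoP15I released the tags, per the labels' protocols. The deposited values are raw tag counts, 1 count per tag of 21 bases with a symbol, per the file headers and the values. Per the submitters' processing notes the authors used mm9. Their aligner is not given in the sources used here. All 4 tables share 30627 tags, and other tags were not analysed here.

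Counts of all tags of a deposited symbol were summed. Differences were tested with edgeR 4.0.16 in R 4.3.3 (quasi-likelihood test, TMM, filterByExpr with a minimum count of 10 and a minimum total of 15, Benjamini-Hochberg adjustment over 2979 symbols, threshold 0.05, no term besides the group). Factors by TMM were 0.9867 and 0.8651 at day 21 and 1.045 and 1.1211 in the untreated libraries. The coefficient of variation between replicates was 0.4818, with 2 residual degrees of freedom. Log2 changes are day 21 minus untreated, with the SE taken as the ratio of the change to the root of F. DESeq2 1.42.0 and other scalings, filters, tag choices, a replicate block and leaving out each library were alternatives. The test was tried on simulated counts of this comparison.

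Of 266 member tags listed, 263 matched a GENCODE M21 transcript (GRCm38) of their own gene on the sense strand and 9 matched several genes. The last NlaIII site is that of the principal transcript of a gene. Tags of BALB/c that differ from the reference can be missed in every library.

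Members, lists and the rule for named genes were chosen with earlier results of these data known. The rule takes, in each role group, up to 4 members of highest level and up to 4 of smallest p, and all forms of a pump subunit. No analysed tag carried the symbol Atp6v1b1, Atp6v1c2, Atp6v1e2, Atp6v1g3 or Atp6v0a4, so these forms have no value here. Some items are not reported here.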

Additional observations from a re-analysis of the deposited data

How the results depend on the processing

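With 2 libraries per group, intervals were wide. A missed threshold does not show that a member stayed the same. The count of symbols past the threshold depended on the processing: from 22 it went to 9 with scaling by total counts, 41 without the filter on low counts, 9 with the most abundant tag only, 10 without tags matching several genes and 6 with tags at the last NlaIII site only, an alternative chosen after seeing the data. Leaving out 1 library gave 9 (without untreated replicate 1) to 81 (without untreated replicate 2). The count of members past the threshold was 0 to 2 when 1 library was left out, and 0 in the other alternatives. The 2 were Grn and Ctns, without untreated replicate 2.

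Same-numbered libraries deviated together (r = 0.54 over 2979 symbols), but with 2 pairs per design the numbers are not shown to mark paired samples. With the replicate block, 37 symbols and 0 members passed, and Man2b1 turned to 0.07. In that setting 8 of 41 members had an unadjusted p under 0.05, beside 390 of all 2979 tested symbols.

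The median of the membrane proteins (0.27) was 0.04 with total counts, 0.00 with the most abundant tag, 0.13 with last-site tags and 0.17 to 0.37 when 1 library was left out. The median of the pump (0.17) was -0.13 with last-site tags. The log2 ratio of the summed pump level (0.28) was 0.06 and that of the membrane proteins (0.47) was 0.25 with total counts. The summed levels have no value for the replicate block, which does not enter a sum. Over all tested members the median stayed between 0.08 and 0.68 in every setting run.

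Of single members, total counts reversed Atp6v0d2 (-0.14), Atp6v1b2 (-0.04), Atp6v1f (-0.22), Dnase2a (-0.11), Laptm4a (-0.03), M6pr (-0.16) and Neu1 (-0.02). Upper-quartile scaling reversed Atp6v0d1 (0.00) and Man2b1 (0.03), which without the filter was at 0.00. The most abundant tag reversed Atp6ap2 (0.62), Atp6v0d1 (0.00), Laptm4a (-0.23) and Mcoln1 (-0.03). Last-site tags reversed Atp6ap1 (-0.13), Atp6v0d1 (0.21), Atp6v1b2 (-0.34), Atp6v1c1 (-0.25) and Laptm4a (-0.03). Leaving out 1 library gave changes on both sides of 0 for Arsa (-0.09 to 1.59), Atp6ap2 (-0.83 to 0.04), Atp6v0d1 (-0.29 to 0.27), Atp6v0d2 (-0.40 to 1.03), Atp6v0e (-0.78 to 0.18), Atp6v1b2 (-0.03 to 0.48), Atp6v1e1 (-0.81 to 0.27), Atp6v1f (-0.47 to 0.82), Atp6v1g1 (-0.27 to 0.06), Dnase2a (-0.54 to 1.56), Fuca1 (-0.48 to 0.95), Grn (-0.69 to 3.20), Laptm4a (-0.08 to 0.63), M6pr (-0.18 to 0.36), Man2b1 (-0.44 to 0.62), Mcoln1 (-0.08 to 0.83), Neu1 (-0.36 to 1.31) and Ppt1 (-0.17 to 1.0). A lone library of a group was assumed to vary like the other group. The cause of these differences was not tested.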
